A study of Mus musculus with 8 samples.

Results

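The intercalated disc joins neighbouring cardiomyocytes end to end. In its adherens junctions a classical cadherin spans the gap between cells, and catenins tie its tail to actin. In its desmosomes the cadherins desmoglein and desmocollin are tied to desmin filaments by plakoglobin, plakophilin and desmoplakin. In the embryonic ventricle these proteins are spread along the cell border, and the disc forms later. The 10 genes described here were taken by name, out of 55291 gene symbols counted: Cdh2 (N-cadherin), the catenins Ctnna1, Ctnna3, Ctnnb1, Ctnnd1 and Jup, and the desmosomal genes Dsp, Pkp2, Dsg2 and Dsc2. All 10 were found, and all 10 passed the filter of at least 8 counts in total, with 946 to 51472 counts per library.

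Poly(A) RNA of the ventricles was sequenced from mouse embryos on a C57BL/6N background at E10.5, in 4 libraries of Pkn2 cKO embryos (Pkn2 fl/fl with XMLC2-Cre, a driver line specific to cardiomyocytes) and 4 libraries of control littermates (Pkn2 fl/fl without Cre). Both groups therefore carried the floxed alleles, and the cKO group alone carried Cre, so Pkn2 loss and the presence of Cre cannot be told apart. PKN2 is a serine/threonine kinase that acts on the actin cytoskeleton, and the comparison reads which transcripts differ where cardiomyocytes lack it. In whole ventricular tissue, fewer cells of a type and less RNA per cell cannot be told apart.

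Libraries held 47559845 to 56660938 counts. Pkn2 itself was at 81.2 ± 3.07 CPM (library-scaled counts, TMM) in cKO and 144 ± 9.85 CPM in control ventricles (SD, n = 4 each), with no overlap. Each of 15 cardiomyocyte markers had counts in every library, and their summed level was 41626 to 44676 CPM in cKO and 41284 to 45596 CPM in control ventricles. This sum is weighted to the most abundant markers, with Actc1 alone at means of 11877 and 12318 CPM. By gene, 11 of the 15 were lower in cKO and 4 were higher.

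None of the 10 junction genes passed the threshold (adjusted p of at most 0.05 over 26820 genes by edgeR), against 0.858% of all genes tested (0.515% higher and 0.343% lower in cKO). At an unadjusted p under 0.05 there were 4, against 12.8% of all genes. That share was not measured among genes at 10 CPM or more alone. limma-voom and limma on TPM called 0 of the 10, and DESeq2 called 3, namely Cdh2, Dsg2 and Pkp2, all lower in cKO, against 3.23% of all genes and 1.29% in that direction. DESeq2 gave no adjusted p to 10929 of the 26820 genes, and these shares count them as not called. Among genes with an adjusted p the shares are higher. For each of the 10 genes the 95% interval of the log2 fold change lay inside a 1.5-fold change in either direction (0.58 on the log2 scale). The median log2 fold change of the 10 was 0.04, beside −0.0008 over all genes tested, and 6 of the 10 values were above 0, as were 49.8% over all genes. Among the 9858 genes at 10 CPM or more, where all 10 belong, the median was −0.02 and 40.8% were above 0.

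Levels are compared between genes only as TPM, which divides by transcript length. Ctnnb1, which encodes beta-catenin, was the most abundant of the 10, at 446 ± 13.0 TPM in cKO and 418 ± 8.26 TPM in control ventricles (SD, n = 4 each). It was followed by Ctnna1, the alpha-catenin that links beta-catenin to actin, at 287 ± 10.3 and 275 ± 10.1 TPM. Then came Ctnnd1, Dsp, Cdh2, Pkp2 and Jup, whose means over the 8 libraries ran from 166 down to 76.9 TPM. Dsc2 and Dsg2, the desmosomal cadherins, were at 33.3 and 31.2 TPM, and Ctnna3, which encodes an alpha-catenin of heart muscle, was at 10.9 TPM. The ranges of neighbours in this order overlapped for Ctnnd1 and Dsp, for Dsp and Cdh2, and for Dsc2 and Dsg2. Dsc2 was above Dsg2 in 5 of 8 libraries, so their order does not exceed the spread, whereas Ctnnd1 was above Dsp in 8 of 8.

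**Figure D1:**
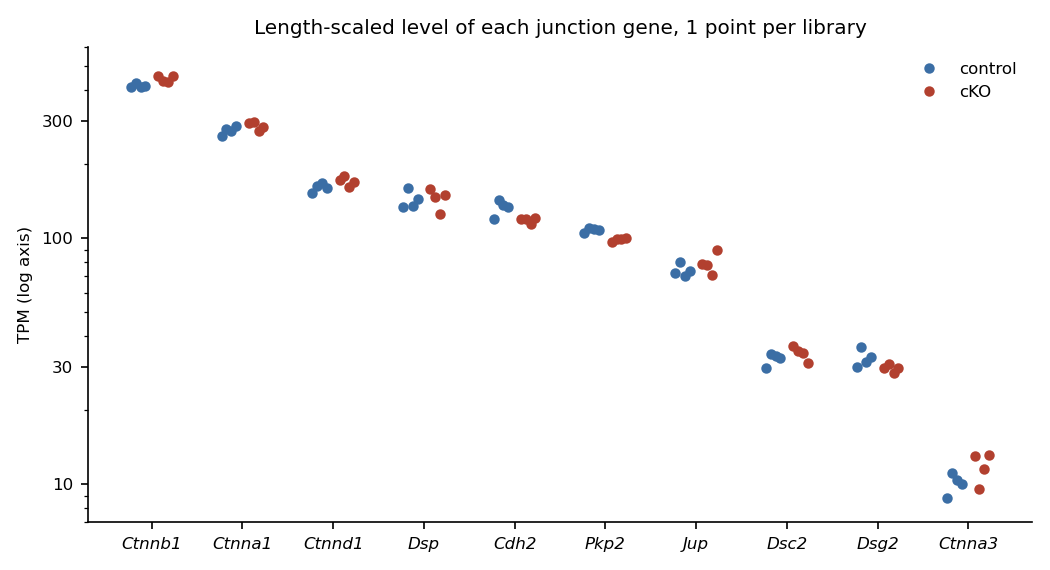
TPM (log axis) of the 10 junction genes in each of 4 control and 4 cKO libraries, ordered by mean. Ctnnb1 lies highest and Ctnna3 lowest, with means of 432 and 10.9 TPM.

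The level of Ctnnd1, which encodes the p120-catenin that holds cadherins at the membrane, rests on the table used. Its CPM was 0.366 per TPM, below 0.458, the 5th percentile of genes at 10 CPM or more, whose median was 1.73. The gene model Gm28635, on the same strand, had 0 counts and shares 37.6% of the exonic bases of Ctnnd1 in the GENCODE vM39 annotation of GRCm39. Whether reads in the shared exons went uncounted was not tested. Among the other 9 genes this ratio ran from 1.65 (Pkp2) to 5.19 (Dsp, a long transcript). Gene models on the opposite strand share 5.56% of the exonic bases of Dsp and 3.44% of those of Dsg2, and the strand setting of the counting is not given in the sources used here.

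The promoters of the most and the least abundant of the 10 genes are shown because their levels were 39.5-fold apart in TPM. Each sequence is the 250 bases before the start of the transcript, from RefSeq on GRCm38.p6, with every CG in capitals. Promoters were read for 5 of the 10 genes: Ctnnb1, Ctnna3, Ctnnd1, Jup and Dsp.
Ctnnb1, chr9:120933150-120933399, plus strand: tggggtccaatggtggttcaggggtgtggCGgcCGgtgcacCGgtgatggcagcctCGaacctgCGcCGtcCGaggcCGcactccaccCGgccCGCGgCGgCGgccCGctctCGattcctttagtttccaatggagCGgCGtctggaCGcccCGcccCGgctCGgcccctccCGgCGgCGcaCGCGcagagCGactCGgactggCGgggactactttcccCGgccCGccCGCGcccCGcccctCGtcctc
Ctnna3, chr10:63429848-63430097, plus strand: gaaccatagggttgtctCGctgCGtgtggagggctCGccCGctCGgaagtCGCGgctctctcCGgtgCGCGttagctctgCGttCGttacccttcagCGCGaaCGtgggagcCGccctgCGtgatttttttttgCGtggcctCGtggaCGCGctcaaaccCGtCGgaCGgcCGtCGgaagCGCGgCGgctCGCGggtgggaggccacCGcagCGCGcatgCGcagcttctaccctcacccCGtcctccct
Both are rich in CG, with 35 in Ctnnb1 and 36 in Ctnna3, where the median of 32851 promoter windows of that length was 6 and 92.1% held at least 1. Neither holds TATAAA on either strand, which 12.4% of the windows do. Among the other matched genes, Dsp had 22 CG and Jup 13, and Ctnnd1 had 3 together with a TATAAA. The difference in level between Ctnnb1 and Ctnna3 was thus not accompanied by a difference in CG number in this window.

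Cdh2 encodes N-cadherin, the classical cadherin of the myocardium (ENSMUSG00000024304, chromosome 18 of GRCm38, 16588877 to 16809246, minus strand). It was at 291, 292, 282 and 294 CPM in cKO replicates 1 to 4 and at 299, 340.0, 339 and 344 CPM in control replicates 1 to 4. Every cKO library lay below every control library, with control replicate 1 close to the cKO values. The cKO mean was 87.7% of the control mean, a log2 fold change of −0.19 (SE 0.057, 95% interval −0.31 to −0.07, adjusted p = 0.139 by edgeR). With control replicate 1 left out, the log2 fold change was −0.23 (adjusted p = 0.0967 by edgeR).

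Dsg2, the desmoglein of the heart (ENSMUSG00000044393, chromosome 18, 20558074 to 20604521, plus strand), was at 87.0, 89.3, 85.1 and 87.8 CPM in cKO and at 93.4, 104, 96.9 and 102 CPM in control libraries. The groups did not overlap. Its log2 fold change was −0.18 (SE 0.054, 95% interval −0.29 to −0.07, adjusted p = 0.130 by edgeR).

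Pkp2 encodes plakophilin-2, the armadillo protein that gathers desmosomal cadherins and desmoplakin (ENSMUSG00000041957, chromosome 16, 16213318 to 16272712, plus strand). It was at 157, 161, 166 and 164 CPM in cKO and at 177, 177, 184 and 185 CPM in control libraries. These groups were also apart, with SDs of 3.83 CPM in cKO and 4.37 CPM in control. The log2 fold change was −0.16 (SE 0.050, 95% interval −0.27 to −0.05, adjusted p = 0.161 by edgeR).

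Separation of the groups in these 3 genes has to be read against all genes. In CPM, the 4 cKO values all lay under the 4 control values for 3 of the 10 genes, against 3.77% of all genes tested and 7.16% of those at 10 CPM or more. The opposite order held for 0 of the 10 and 3.14% of all genes, and either order for 6.91%. The exact permutation test (two-sided) gave p = 0.0286 for each of the 3, the smallest that 4 libraries against 4 allow. Any gene whose groups do not overlap gets this p, so it restates the separation and adds nothing to it. On the TPM scale the groups of Pkp2 still did not overlap (2.49% of all genes were apart in that direction), whereas those of Cdh2 and Dsg2 did, through control replicate 1. With libraries scaled to the cardiomyocyte markers Pkp2 was again apart (1.44% of all genes), and Cdh2 and Dsg2 overlapped. With library sizes alone all 3 were apart (3.12% of all genes). For these other scalings the share among genes at 10 CPM or more was not measured. DESeq2 gave adjusted p = 0.0322 for Cdh2, 0.0352 for Dsg2 and 0.0245 for Pkp2 (Wald test). The 3 log2 fold changes were below 0 in each alternative run, and with libraries scaled to the cardiomyocyte markers they were −0.12, −0.11 and −0.09 (adjusted p = 0.400 for Cdh2, 0.407 for Dsg2 and 0.502 for Pkp2 by edgeR).

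**Figure D2:**
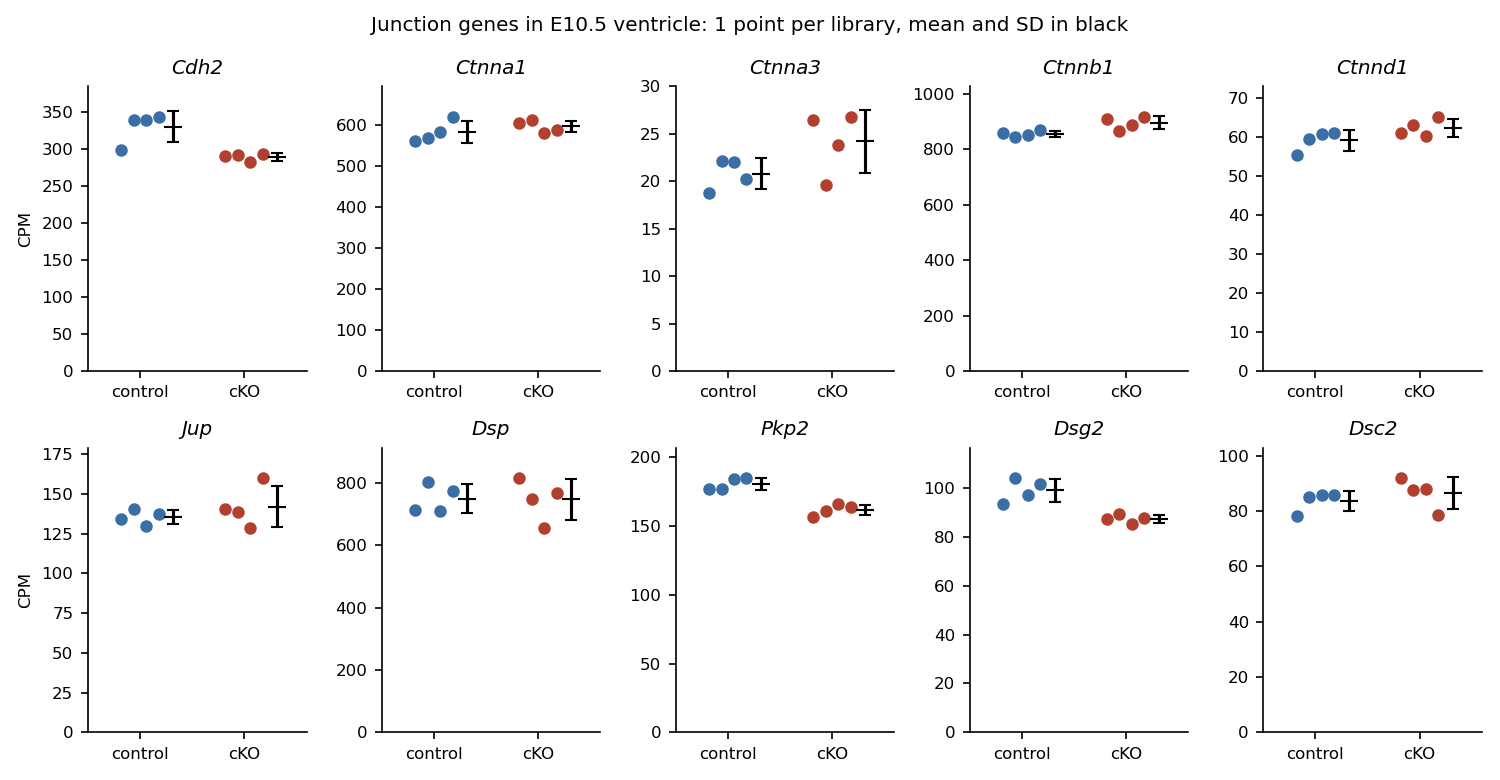
CPM of the 10 junction genes, 1 point per library, with the mean and SD of each group in black (n = 4 each) and each axis starting at 0. The cKO points of Cdh2, Pkp2 and Dsg2 lie below all control points, and the groups of the other 7 genes overlap.

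The 5 catenins each had a log2 fold change above 0, from 0.03 to 0.22, and 0 of them passed the threshold. With libraries scaled to the cardiomyocyte markers, which moves the median of all genes up by 0.07, the values were 0.10 for Ctnna1, 0.13 for Ctnnb1, 0.15 for Ctnnd1, 0.14 for Jup and 0.28 for Ctnna3 (adjusted p from 0.178 to 0.476 by edgeR). Ctnnb1, whose protein also carries Wnt signals to the nucleus (ENSMUSG00000006932, chromosome 9, 120933400 to 120960507, plus strand), was at 911, 867, 887 and 919 CPM in cKO and at 859, 845, 853 and 871 CPM in control libraries. In 3 of 4 cKO libraries it was above every control, and the groups overlapped through cKO replicate 2. Its log2 fold change was 0.06 (SE 0.052, 95% interval −0.05 to 0.17, adjusted p = 0.696 by edgeR). Its groups did not overlap, with cKO higher, in TPM (3.45% of all genes were apart in that direction), with library sizes alone (3.65%) and with libraries scaled to the cardiomyocyte markers (5.87%). The shares among abundant genes alone were not measured.

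Jup encodes plakoglobin, the relative of beta-catenin found in both kinds of junction (ENSMUSG00000001552, chromosome 11, 100370619 to 100397749, minus strand). It was at 141, 139, 129 and 160.0 CPM in cKO and at 134, 141, 129.8 and 137 CPM in control libraries. The groups overlapped, and cKO replicate 4 was the highest of all 8. Without that library the log2 fold change went from 0.07 (SE 0.065, adjusted p = 0.760 by edgeR) to 0.01.

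Ctnna1 (ENSMUSG00000037815, chromosome 18, 35118859 to 35254779, plus strand) was at 604, 611, 581 and 588 CPM in cKO and at 561, 567, 583 and 620.4 CPM in control libraries. Its highest value was a control, and its log2 fold change was 0.03 (SE 0.054, adjusted p = 0.884 by edgeR). Ctnnd1 (ENSMUSG00000034101, chromosome 2, 84600071 to 84650765, minus strand) was at 61.0, 63.1, 60.2 and 65.3 CPM in cKO and at 55.3, 59.4, 60.8 and 61.0 CPM in control libraries. The 2 highest values were cKO libraries, and the log2 fold change was 0.08 in CPM (SE 0.056, adjusted p = 0.642 by edgeR) and 0.08 in log2(TPM + 1).

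Ctnna3, the least abundant member, varied most between libraries, with a coefficient of variation of 13.7% in cKO and 7.75% in control ventricles. Counting error alone gives 3.25% at its lowest count. Its gene is 1573570 bases long (ENSMUSG00000060843, chromosome 10, 63430098 to 65003667, plus strand) and holds Lrrtm3 on the opposite strand, with no exonic base in common. It was at 26.5, 19.7, 23.8 and 26.8 CPM in cKO and at 18.8, 22.2, 22.0 and 20.2 CPM in control libraries. In 3 of 4 cKO libraries it lay above all controls, and cKO replicate 2 was below 3 of them. The log2 fold change was 0.22 (SE 0.095, 95% interval 0.02 to 0.42, adjusted p = 0.344 by edgeR), and it was 0.31 without cKO replicate 2 (adjusted p = 0.0958 by edgeR).

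Dsp encodes desmoplakin, which anchors desmin to the desmosome (ENSMUSG00000054889, chromosome 13, 38151294 to 38198577, plus strand). It was at 816, 749.6, 657 and 767 CPM in cKO and at 713, 802, 711 and 775 CPM in control libraries. Both the highest and the lowest library were cKO. The log2 fold change was −0.01 (SE 0.070, 95% interval −0.15 to 0.14, adjusted p = 0.992 by edgeR), and its sign turned in several alternatives, to at most 0.06 with libraries scaled to the cardiomyocyte markers. Dsc2, the desmocollin partner of Dsg2 (ENSMUSG00000024331, chromosome 18, 20030633 to 20059554, minus strand), was at 92.0, 87.5, 88.1 and 78.6 CPM in cKO and at 78.2, 85.0, 85.8 and 85.7 CPM in control libraries. In 3 cKO libraries it was above all controls, and in cKO replicate 4 it was close to the lowest control. Its log2 fold change was 0.05 (SE 0.060, 95% interval −0.08 to 0.18, adjusted p = 0.821 by edgeR).

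**Figure D3:**
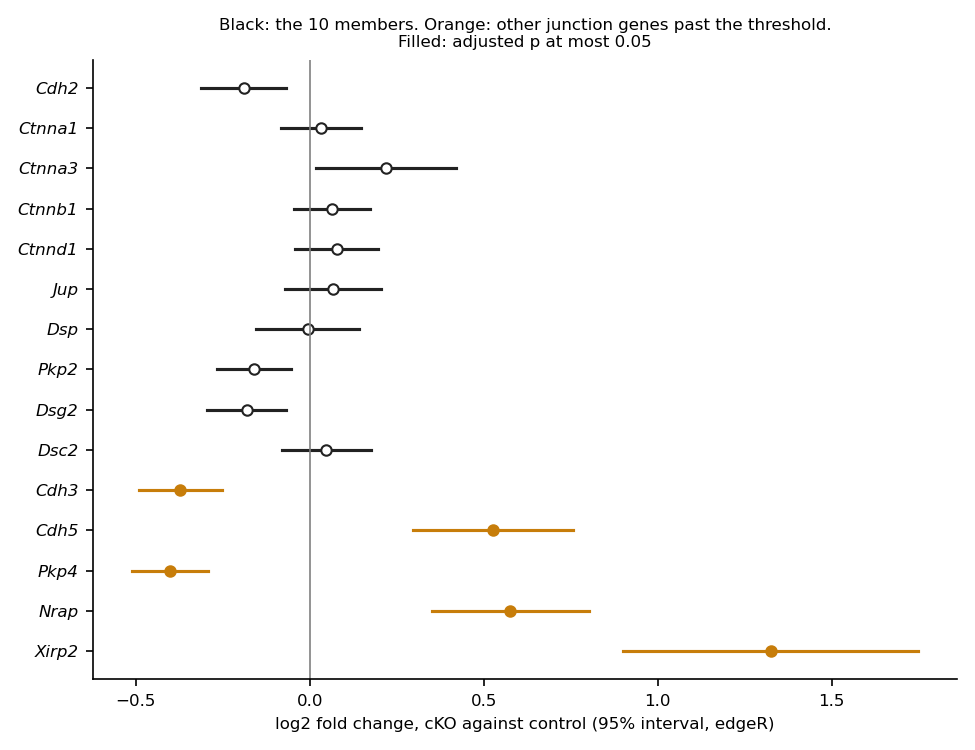
Log2 fold change of cKO against control with 95% intervals from edgeR, for the 10 junction genes (black) and the other junction genes past the threshold (orange), with filled points at an adjusted p of at most 0.05. The 10 black intervals lie between −0.31 and 0.42, and no black point is filled.

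Values within a library do not depend on the scaling between libraries. Counts of Cdh2 were 0.318 to 0.336 of those of Ctnnb1 in cKO and 0.348 to 0.402 in control libraries. For Dsg2 the ratio was 0.0955 to 0.103 against 0.109 to 0.123, and for Pkp2 it was 0.172 to 0.187 against 0.206 to 0.216. The ranges were apart in each case, with cKO at 83.9%, 84.4% and 85.7% of the control mean ratio. These ratios were chosen after the values were seen and are given with no test. Their numerators were genes already seen to be apart and lower, and Ctnnb1 was apart and higher under other scalings. How many of all genes have a ratio to Ctnnb1 that is apart was not measured, so the ratios add no evidence.

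How far each member stands for its protein family was measured as its share of the family's TPM. Dsg2 held 99.9% ± 0.029 of desmoglein TPM in cKO and 99.8% ± 0.11 in control ventricles (SD, n = 4 each), and no other desmoglein exceeded 0.0756 TPM in any library. Dsc2 held 99.8% ± 0.064 and 99.6% ± 0.083 of desmocollin TPM. Pkp2 held 99.9% ± 0.070 and 99.8% ± 0.035 of the TPM of plakophilins 1 to 3. In both groups nearly all TPM of each of these 3 sets came from 1 gene. Pkp4, placed here with the p120 family, was at 42.3 TPM in cKO and 55.0 TPM in control ventricles.

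Beta-catenin made up 84.9% ± 1.0 of the TPM of Ctnnb1 and Jup together in cKO and 84.9% ± 0.51 in control ventricles (exact permutation test, p = 1). Ctnna1 held 95.9% ± 0.62 and 96.3% ± 0.25 of alpha-catenin TPM (exact permutation test, p = 0.229), and Ctnna3 held most of the rest, at 3.94% and 3.53%.

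The p120 and cadherin families had shares without overlap. Ctnnd1 held 74.3%, 74.9%, 73.9% and 73.9% of p120 family TPM in cKO and 68.6%, 68.3%, 69.6% and 69.0% in control libraries. Pkp4, which encodes the p120 relative p0071, held 18.4% ± 0.27 and 23.5% ± 0.38. Cdh2 held 35.6%, 37.9%, 38.96% and 34.9% of classical cadherin TPM in cKO and 39.5%, 42.8%, 46.6% and 44.2% in control libraries. Cdh5, the cadherin of endothelial cells, held 42.4% ± 4.11 in cKO and 30.4% ± 3.69 in control. For both Ctnnd1 and Cdh2 the exact permutation test gave p = 0.0286, the smallest possible, and an adjusted p of 0.1 over the 7 families. None of the 7 shares passed. At that smallest p neither share could pass, however far apart the groups, unless more of the families also reached it. The adjusted test therefore cannot decide whether these shares differ. With Cdh5 left out, an alternative chosen after the data were seen, the share of Cdh2 turned to 64.0% ± 1.43 in cKO and 62.1% ± 1.47 in control ventricles (exact permutation test, p = 0.114).

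**Figure D4:**
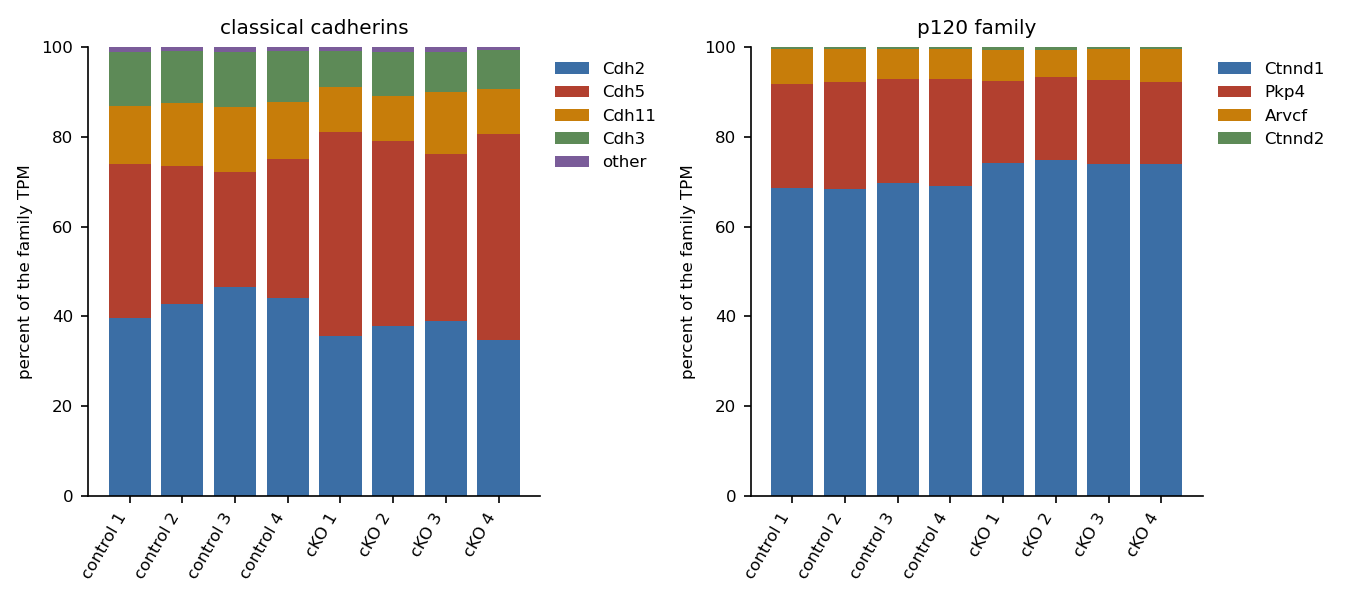
Percent of family TPM held by each gene in each library, for the classical cadherins (left) and the p120 family (right). In cKO libraries the Cdh5 band is wider and the Cdh2 band narrower than in control libraries, and the Pkp4 band is narrower.

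Beyond the 10 members, 87 other genes of the junction were followed, of which 85 could be tested. Of these, 5 passed the threshold (0.858% of all genes did), 3 higher and 2 lower in cKO, and over the 85 the median was −0.04 on the log2 scale. Ilk, included in the 85, had 2 to 12 counts per library but 180 to 208 TPM, so its counts do not measure its level. Pkp4 was at 105, 107, 104 and 102 CPM in cKO and at 132, 136, 140.0 and 144 CPM in control libraries. It fell to 75.8% of the control mean, a log2 fold change of −0.40 (SE 0.052, adjusted p = 0.00198 by edgeR). Cdh3, which encodes P-cadherin, was at 67.0, 74.3, 66.2 and 72.8 CPM in cKO and at 92.9, 92.4, 89.5 and 87.7 CPM in control libraries. It fell by 0.37 on the log2 scale (SE 0.057, adjusted p = 0.0052 by edgeR). In both genes every cKO value was under the control values.

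Cdh5 rose, from 239, 224, 171 and 218 CPM in control to 339, 286, 247 and 353 CPM in cKO libraries, a log2 fold change of 0.53 (SE 0.11, adjusted p = 0.0303 by edgeR). Nrap and Xirp2, which encode actin-binding proteins of the developing myofibril and the disc, were the other 2 that rose. Nrap was at 83.8, 53.6, 58.0 and 61.0 CPM in cKO and at 39.4, 45.3, 44.0 and 43.3 CPM in control libraries (log2 fold change 0.58, SE 0.11, adjusted p = 0.0185 by edgeR). Xirp2 was low, at 2.18 to 3.14 CPM in cKO and 0.850 to 1.31 CPM in control libraries (log2 fold change 1.32, SE 0.20, adjusted p = 0.0052 by edgeR). With 1 library left out at a time, Cdh5 lost its call in 6 of 8 fits and Nrap in 3 of 8, and Pkp4, Cdh3 and Xirp2 kept theirs. On log2(TPM + 1), where 1 gene in all passed, the adjusted p was 0.0784 for Pkp4, 0.206 for Cdh3, 0.363 for Cdh5, 0.336 for Nrap and 0.173 for Xirp2 (limma), with the same signs.

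In the remaining lists 0 genes passed by edgeR. DESeq2 called 12 of the 85 other junction genes, 5 higher and 7 lower, those above included. Over all genes its share was 3.23%, with genes that had no adjusted p counted as not called. Among 16 nectins, afadin and actin linkers 9 were higher and 7 lower in cKO, and 5 had an unadjusted p under 0.05. Their most abundant genes had log2 fold changes of 0.04 (Nectin2), 0.19 (Vcl, vinculin) and −0.16 (Lmo7), with adjusted p from 0.164 to 0.906 by edgeR. All 11 tested desmosomal genes outside the members were lower, 1 at an unadjusted p under 0.05, but 7 of the 13 listed had a library without a count, and the abundant ones were at −0.14 (Des, desmin, adjusted p = 0.278 by edgeR), −0.05 (Perp) and −0.04 (Ppl). Of 6 gap junction and sodium channel genes 5 were lower and 1 had an unadjusted p under 0.05, with Gja1, the gene of connexin 43, at −0.34 (adjusted p = 0.0820 by edgeR), Gja5 at −0.04 and Gjc1 at −0.0030.

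Genes that act on cadherin and catenin turnover had log2 fold changes from −0.10 to 0.17. Of the 9, 3 were higher in cKO, and 1 had an unadjusted p under 0.05, namely Apc of the destruction complex of beta-catenin (0.17, adjusted p = 0.286 by edgeR, named after its values were seen). Csnk1a1 and Adam10 had log2 fold changes of −0.10 and −0.07. The transcriptional targets through which beta-catenin is read out in the nucleus numbered 14, of which 10 were higher, 0 passed and 3 had an unadjusted p under 0.05 (12.8% of all genes did). Of these 3, named after their values were seen apart from Ccnd1, Ccnd1 and Apcdd1 were higher, and Tbx3 was lower, with every cKO value under the controls (log2 fold change −0.30, adjusted p = 0.234 by edgeR). Over the list the median was 0.12 on the log2 scale. Ccnd1 was at 0.18, Lef1 at 0.09 and Tcf7 at 0.07 (adjusted p from 0.247 to 0.810 by edgeR).

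Markers of other cells were measured beside these genes. All 15 endothelial and endocardial markers, Cdh5 among them, had log2 fold changes above 0 (median 0.37). In 9 of the 15 every cKO value was above the controls (3.14% of all genes), and 5 passed (0.515% of all genes passed as higher). Besides Cdh5, those that passed were Emcn (0.72), Pecam1 (0.48), Tie1 (0.41) and Nfatc1 (0.36), with adjusted p from 0.0177 to 0.0477 by edgeR. The summed level of the 15 was 2006 to 2513 CPM in cKO and 1581 to 1873 CPM in control libraries, and their score (mean log2 CPM relative to the control mean) was 0.59, 0.22, 0.19 and 0.62 in cKO replicates 1 to 4. The score of the 5 catenins was 0.12, 0.03, 0.04 and 0.17 in the same order, with cKO replicates 1 and 4 highest in both. By gene this order held for Ctnnb1, Jup and Ctnna3. Among the cKO libraries Ctnna1 was highest in replicates 1 and 2, and Ctnnd1 in replicates 2 and 4. The score of Cdh2 was −0.18, −0.18, −0.23 and −0.17. Cardiomyocyte markers had 4 of 15 genes higher, 0 passed and 4 at an unadjusted p under 0.05 by edgeR, a median of −0.05 on the log2 scale, and a mean score of −0.07 in cKO. In 2 of the 15 every cKO value was under the controls (3.77% of all genes, 7.16% at 10 CPM or more), and in 0 the order was opposite. They were Nkx2-5 (log2 fold change −0.32, adjusted p = 0.109 by edgeR) and Pln (−0.38, adjusted p = 0.0755 by edgeR), named after their values were seen. The part of cell composition in the junction values was not tested.

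**Figure D5:**
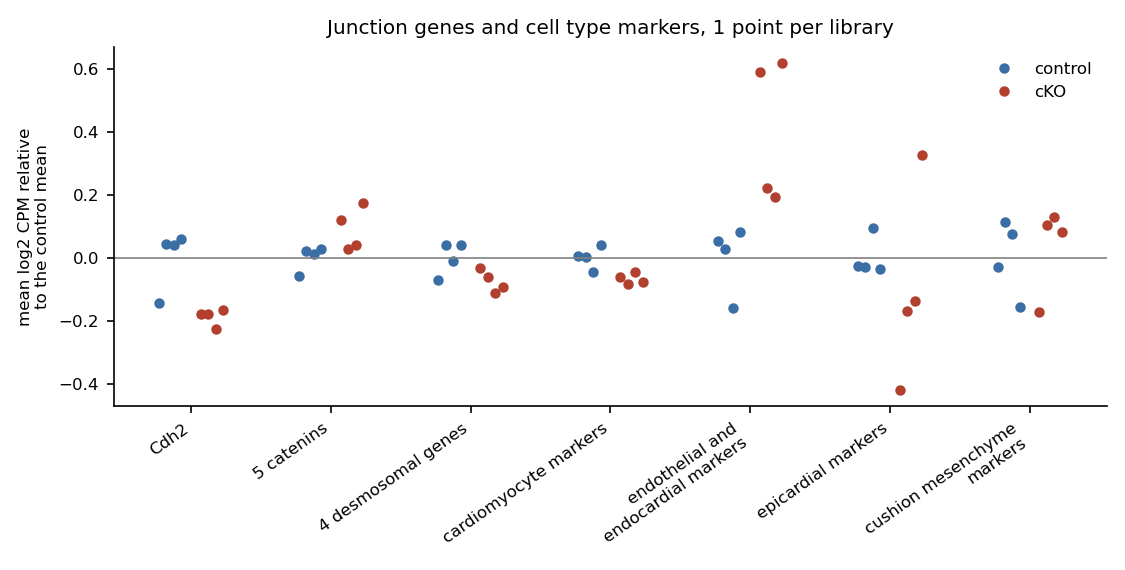
Mean log2 CPM relative to the control mean for Cdh2, the 5 catenins, the 4 desmosomal genes and 4 lists of cell type markers, 1 point per library. Endothelial and endocardial markers reach 0.62 in cKO, while cardiomyocyte markers stay between −0.08 and 0.04 in all 8 libraries.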

How the data were processed

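Ventricular RNA from 4 cKO and 4 control samples was analysed. Gene-level counts were used as deposited, not normalized by the authors, beside the authors' TPM values, which are scaled for length and depth. The submitters' processing notes name Trim Galore 0.6.7, HISAT2 2.2.1, StringTie 2.2.1 and featureCounts, and the methods name GRCm39. Gene starts in the deposited TPM table lay within 1000 bases of GRCm38 starts for 85.83% of 37776 genes (GRCm39: 3.26%), so its coordinates are given as GRCm38.

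The members and all lists were chosen with earlier results of these data known. Genes with at least 8 counts in total entered a quasi-likelihood fit on condition alone after TMM scaling (edgeR 4.0.16, R 4.3.3), with Benjamini-Hochberg adjustment over all genes. An SE is the log2 fold change over the root of F. Log2 CPM used a prior count of 2. Single values were compared by exact permutation tests (two-sided, scipy 1.17.1). Named were all members and, per list, genes past the threshold or else the 3 with the highest TPM, of which 1 is not reported here. Alternatives were DESeq2 1.42.0, limma-voom and limma 3.58.1 on log2(TPM + 1 or 0.1), other scalings and filters, a replicate block, and each library left out. The steps were tested on simulated data. Depth was 47559845 to 56660938 counts, and intervals cover the spread between libraries. No 2 libraries of a group were copies (chi-square per degree of freedom 11.0 to 35.3).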

Additional observations from a re-analysis of the deposited data

Results flagged for a closer look

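Within groups of 4, a library was singled out where its gap to the nearest other library, as a share of the group's range, exceeded Dixon's critical value, which chance gives in about 1 of 20 groups. Of 46 groups examined over the named genes and family shares, 2 met this, and both were control replicate 1. Cdh2 was at 299 CPM there, below the other controls at 339 to 344 CPM, a gap of 0.894 of the range. Dsc2 was at 78.2 CPM there, below the other controls at 85.0 to 85.8 CPM, a gap of 0.901 of the range. The same library had the most counts of 3 markers on the epithelial list, named after their values were seen: Afp had 860 there and 4 to 127 elsewhere, Apoa1 had 329 and 2 to 39, and Ttr had 163 and 13 to 74. Their part in the Cdh2 and Dsc2 values was not tested. Without that library the log2 fold change was −0.23 for Cdh2 and 0.02 for Dsc2.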

How the results depend on the processing

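None of the 10 junction genes passed by edgeR under any scaling, filter, block or omitted library (0 to 0), nor by limma; DESeq2 called 3. Among the 10, only Dsp changed sign: 0.00041 with DESeq2, 0.0004 with its size factors, 0.0042 with library sizes alone, 0.0638 scaled to the cardiomyocyte markers, 0.0048 with filterByExpr, 0.00197 with no filter, 0.0193 on log2(TPM + 1) with or without a mean TPM filter, 0.0194 on log2(TPM + 0.1), and −0.0443 to 0.0542 with libraries left out. Members without overlap were 5 with library sizes alone (3 lower, and Ctnnb1 and Ctnnd1 higher), 2 on TPM and 2 with the cardiomyocyte scaling (Pkp2 lower and Ctnnb1 higher in each), and 3 to 5 with libraries left out. Smaller groups come apart more readily, and with libraries left out the share of all genes was not measured, so that range cannot be judged. The Cdh2 share among cadherins differed by 1.89 percentage points, not −6.45, without Cdh5. Other junction genes called were 12 with DESeq2, 9 with no filter, 0 on log2(TPM + 1) and log2(TPM + 0.1), 1 with a mean TPM filter, and 3 to 11 with libraries left out (11 without cKO replicate 3; 3 without control replicate 1, 3 or 4). Over all genes 230 passed; DESeq2 called 867, the cardiomyocyte scaling 487 (86.0% of them higher, against 60%), no filter 878, log2(TPM + 1) 1, log2(TPM + 0.1) 7, its mean TPM filter 22, and omitted libraries 67 (control replicate 1) to 744 (cKO replicate 3). The causes were not tested. Replicate numbers did not pair the libraries (correlations −0.19, −0.03, 0.0056 and −0.14 over 14302 genes), and the replicate block called 380 genes and 0 of the 10. Counting error was 3.25% at the lowest count of the 10 genes (Ctnna3), and 4 libraries a group limit the precision.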

Other observations

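Other marker lists were also measured. All 10 macrophage markers were higher in cKO, at a summed level of 13.5 to 43.1 CPM in cKO and 7.73 to 14.4 CPM in control libraries. Of the 10, C1qb (log2 fold change 2.30, adjusted p = 0.0293 by edgeR) and C1qc (2.54, adjusted p = 0.0131 by edgeR) passed, where 0.515% of all genes passed as higher. Epithelial markers were scarce: 8 of 15 had a library without a count. Of the 12 tested, 9 were lower in cKO (median log2 fold change −1.26), 0 passed and 4 had an unadjusted p under 0.05 by edgeR, and every cKO value of Ttr was under the controls. Their summed level, most of it Krt8 and Krt18, was 65.0 to 121 CPM in cKO and 81.0 to 107 CPM in control libraries. Erythroid markers, 9 of 9 with a log2 fold change above 0 and 0 at an unadjusted p under 0.05 by edgeR, varied within both groups, from 1382 to 4862 CPM in cKO and from 1520 to 4704 CPM in control libraries. Of 9 epicardial markers 6 were lower and 3 higher in cKO (median log2 fold change −0.16), 0 passed and 2 had an unadjusted p under 0.05 by edgeR. Every cKO value of Tbx18 was under the controls (3.77% of all genes). Epicardial scores ran from −0.42 (cKO replicate 1) to 0.33 (cKO replicate 4). Cushion mesenchyme markers had 0 of 10 genes past the threshold and 0 at an unadjusted p under 0.05 by edgeR.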
